A study of Mus musculus with 7 samples.

Results

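The regions described here are 840 places on the mouse genome where the erythroid transcription factor EKLF (gene Klf1) was bound near a coding exon at both stages examined. They were chosen by the peak calls of both stages. Each is an erythroblast ChIP-seq peak that overlapped a progenitor peak by at least 1 bp and lay within 1 kb of the start of a coding exon in the deposited expression table. They are 840 of 19353 erythroblast peaks (4.34%), 14.1% of the 5977 erythroblast peaks shared with progenitors, and 54.9% of the 1531 erythroblast peaks close to coding exons. Peak calls, overlap and nearness to an exon chose them, so these are given as description, with no test.

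The study mapped EKLF binding and RNA in livers of E13.5 mouse fetuses, whose Klf1 gene carries a hemagglutinin tag that an antibody can pull down. All samples, including the inputs, carried the tagged gene and were untreated primary cells. The sort used Ter119, a surface antigen gained by red cells as they mature, and CD71, which takes up iron-loaded transferrin. Progenitors combined Ter119-CD71- with Ter119-CD71+ cells, and erythroblasts were Ter119+CD71+. The 7 samples were 2 ChIP libraries, 2 input libraries and 3 RNA libraries, 2 of them from erythroblasts. The files held 1 pooled peak list and 1 RNA column per stage, so differences between the stages could not be set against a spread of replicates and carry no p-value. Each population was sorted 3 or more times, per the labels. Both listed globin genes were higher in erythroblasts by at least 2-fold. None of the marker genes fixed for hepatocytes, macrophages, granulocytes and mast cells, B cells or endothelial and stromal cells was listed in the RNA table. The 1 listed megakaryocyte marker rose (log2 difference 1.66), and of 2 listed stem and progenitor markers 1 fell. That table holds only exons with a value of 0.8 or more at both stages, so genes silent at either stage were not analysed here. The depth of the libraries is unknown, since the files give no read totals.

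EKLF is a zinc finger protein that binds CACC-type sequences and activates globin, heme synthesis, membrane skeleton and cell cycle genes as red cells mature. A CACC site is a short C-rich run, broader forms of which also resemble the GC boxes bound by other Sp and Kruppel-like factors. Promoters of widely expressed genes are often rich in C and G and so carry many such runs.

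The promoters below show what the C-rich runs look like at genes whose first coding exon lay at 1 of these peaks. They are those of the erythroid lists with such a peak and a match, E2f2 and Zfpm1, followed by the genes with the most enriched peaks under the same conditions, 8 in all. Each is the 250 bases before the transcription start in RefSeq, build GRCm38.p6, printed 5′ to 3′ on the coding strand. Capitals mark matches to CCNCNCCC, a broad form of the EKLF site, on either strand. On the opposite strand a match appears as a run of G.

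E2f2: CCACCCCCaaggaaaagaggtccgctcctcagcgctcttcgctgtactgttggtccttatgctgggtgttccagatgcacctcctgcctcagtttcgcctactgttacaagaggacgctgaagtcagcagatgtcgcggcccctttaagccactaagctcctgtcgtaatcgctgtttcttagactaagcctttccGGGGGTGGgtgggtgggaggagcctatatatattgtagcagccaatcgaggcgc
Zfpm1: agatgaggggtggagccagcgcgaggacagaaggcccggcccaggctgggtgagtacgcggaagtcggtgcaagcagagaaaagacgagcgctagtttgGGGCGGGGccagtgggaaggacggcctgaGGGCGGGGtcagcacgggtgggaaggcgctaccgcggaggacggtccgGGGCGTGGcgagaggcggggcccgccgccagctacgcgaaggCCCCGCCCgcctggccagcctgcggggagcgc
Gclm: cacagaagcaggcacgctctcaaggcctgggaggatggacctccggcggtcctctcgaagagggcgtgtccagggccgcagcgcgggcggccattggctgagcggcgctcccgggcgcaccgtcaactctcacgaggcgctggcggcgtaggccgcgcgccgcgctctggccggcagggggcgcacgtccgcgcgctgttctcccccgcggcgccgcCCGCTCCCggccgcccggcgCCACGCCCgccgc
Sod1: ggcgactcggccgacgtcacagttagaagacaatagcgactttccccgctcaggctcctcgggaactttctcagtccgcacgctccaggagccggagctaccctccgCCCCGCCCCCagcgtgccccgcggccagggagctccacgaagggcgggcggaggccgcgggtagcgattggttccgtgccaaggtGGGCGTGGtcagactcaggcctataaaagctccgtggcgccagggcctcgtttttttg
Eif1: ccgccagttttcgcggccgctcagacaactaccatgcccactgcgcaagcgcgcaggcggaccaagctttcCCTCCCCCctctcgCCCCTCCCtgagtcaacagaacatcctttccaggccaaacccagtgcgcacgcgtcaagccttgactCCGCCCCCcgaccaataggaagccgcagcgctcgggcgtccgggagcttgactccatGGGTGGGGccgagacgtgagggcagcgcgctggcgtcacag
Stk11: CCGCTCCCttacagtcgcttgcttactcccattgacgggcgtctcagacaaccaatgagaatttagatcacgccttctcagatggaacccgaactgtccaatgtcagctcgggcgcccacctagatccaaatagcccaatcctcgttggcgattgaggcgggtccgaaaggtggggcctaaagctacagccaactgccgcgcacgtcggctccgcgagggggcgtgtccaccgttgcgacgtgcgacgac
Sde2: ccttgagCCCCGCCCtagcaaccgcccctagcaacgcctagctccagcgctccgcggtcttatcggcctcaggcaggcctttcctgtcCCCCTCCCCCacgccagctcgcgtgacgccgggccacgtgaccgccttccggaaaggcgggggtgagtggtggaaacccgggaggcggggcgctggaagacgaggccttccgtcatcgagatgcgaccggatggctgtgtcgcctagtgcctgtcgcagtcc
Nufip2: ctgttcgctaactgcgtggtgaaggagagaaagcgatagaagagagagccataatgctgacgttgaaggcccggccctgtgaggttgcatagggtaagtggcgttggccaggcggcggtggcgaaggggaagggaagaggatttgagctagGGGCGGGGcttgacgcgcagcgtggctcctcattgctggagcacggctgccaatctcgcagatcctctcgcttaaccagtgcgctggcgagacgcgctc

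E2f2 encodes a cell cycle transcription factor, and its promoter (chr4:136172024-136172273, plus strand) held 2 matches, of which the one nearer the start began 54 bases before it. Zfpm1 encodes FOG1, a cofactor of GATA1 (chr8:122281891-122282140, plus strand), and held 4. Gclm, which encodes a subunit of the enzyme that starts glutathione synthesis (chr3:122245307-122245556, plus strand), held 2, and Sod1, the cytosolic superoxide dismutase (chr16:90220512-90220761, plus strand), held 3. Eif1, a factor for choosing the start codon (chr11:100319699-100319948, plus strand), held 4. Stk11, a kinase upstream of AMPK (chr10:80115545-80115794, plus strand), and Nufip2, an RNA-binding protein (chr11:77685889-77686138, plus strand), held 1 each. Sde2, which acts in splicing and genome maintenance (chr1:180850901-180851150, plus strand), held 3, of which 2 overlap in the run of 10 capitals. None of the 8 held CCACACCC, the classical CACC box, whose letters are 1 case of CCNCNCCC. The peaks are given in build mm9 and the promoters in GRCm38.p6, so where a match lies within a peak was not set.

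RefSeq gave a promoter for 725 of the 873 genes at these peaks, and the motif search covered 300 bases, 250 before and 50 after the start, on both strands. CCNCNCCC was in 72.3% of these promoters, against 69.3% of 2903 listed genes with no peak of either list within 1 kb of a listed exon start and 49.2% of all 27025 promoters. At genes with a peak at the first coding exon of a forward-strand gene, 76.1% of 238 promoters held it. The 8-letter CACC box was rare and near the background, with 3.59% at these peaks, 3.82% at listed genes with no peak and 3.597% of all promoters. The GC box, GGGCGG, was in 75.9%, 68.1% and 35.9% of the same groups, and the median share of G and C bases was 64.0%, 61.3% and 52.7%. CCGGAA, bound by ETS factors, was in 39.0% against 36.7% and 15.2%. CCAAT was in 44.7% against 40.4% and 38.02%. The letters AGATAA, which erythroid GATA factors bind, went the other way with 3.86% against 5.72% and 11.4%, as did the E-box CANNTG with 54.2% against 59.4% and 72.1%. TATAAA was in 7.03% against 5.79% and 14.2%. For CCNCNCCC, GGGCGG and CCGGAA, listed genes without a peak lay nearer to the genes at these peaks than to all promoters, and for CCAAT they lay nearer to all promoters. Base composition moved with these shares, and its part in them was not tested. The GC box and the broad EKLF site can share letters, and the CACC box always lies within the latter.

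At most of these regions, which were chosen for an overlap of at least 1 bp, the 2 peaks covered nearly the same ground. Of the whole erythroblast list, 5977 of 19353 peaks overlapped a progenitor peak. The 840 regions overlapped 841 progenitor peaks, and the median overlap was 1783 bp (range 227 to 7065 bp). This was 93.2% of the erythroblast peak and 90.7% of the progenitor peak at the median. Midpoints lay a median of 140 bp apart, with quartiles of 66 and 228 bp. Widths had a median of 1970 bp in the erythroblast list (921 to 7065 bp) and 2032 bp in the progenitor list (901 to 7430 bp). The erythroblast peak held the whole progenitor peak in 191 cases and lay wholly inside it in 228.

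The smallest overlaps involved genes of red cell metabolism as well as common ones. At Prdx2, which encodes peroxiredoxin 2, an abundant red cell antioxidant, the erythroblast peak chr8:87494180-87495651 (mm9, as for all peaks) shared 227 bp with a progenitor peak. That progenitor peak also overlapped a second erythroblast peak of Prdx2, chr8:87492492-87493906, over all its 1415 bp, the 1 case where a progenitor peak met 2 of these regions. Cfl1, the actin-severing protein cofilin, followed with 252 bp, and its midpoints were the farthest apart at 2122 bp. Urod, the fifth enzyme of heme synthesis, had 662 bp, the proteasome subunit gene Psmb1 901 bp and Tmem14c, a mitochondrial porphyrin transporter gene, 921 bp. At Psmb1 and Tmem14c this was the whole of 1 of the peaks.

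Enrichment, the authors' fold over background for each peak, is read only within 1 list. Its median over the 840 regions was 13.2 in the erythroblast list (quartiles 9.84 and 18.2, range 3.29 to 157) and 7.93 in the progenitor list (6.26 and 10.1, range 3.26 to 70.9). The authors' -log10 p had medians of 16.9 and 10.3. In the erythroblast list 276 of the regions (32.9%) were in the top 10% by enrichment, which holds 1935 peaks, and in the progenitor list 135 (16.1%) were in the top 736. A place in the top 10% of both lists was held by 61 regions, and a place in the lower 50% of both by 85. Across the 840 regions log2 enrichment in the lists had a Pearson r of 0.35 and a Spearman rho of 0.21. Without the 9 regions at listed histone genes these were 0.22 and 0.19. The points are peaks of the same pooled libraries, so the values describe the lists and are given no p. Within the erythroblast list, shared peaks away from coding exons (5137) had a median enrichment of 10.8, erythroblast-only peaks close to coding exons (691) 10.6 and erythroblast-only peaks away from them (12685) 8.87. Their shares in the top 10% were 19.2%, 12.9% and 4.62%. The 841 overlapped progenitor peaks had a median of 7.93, against 6.89 for the other 6517. With 1 list per stage these differences were not tested.

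**Figure D1:**
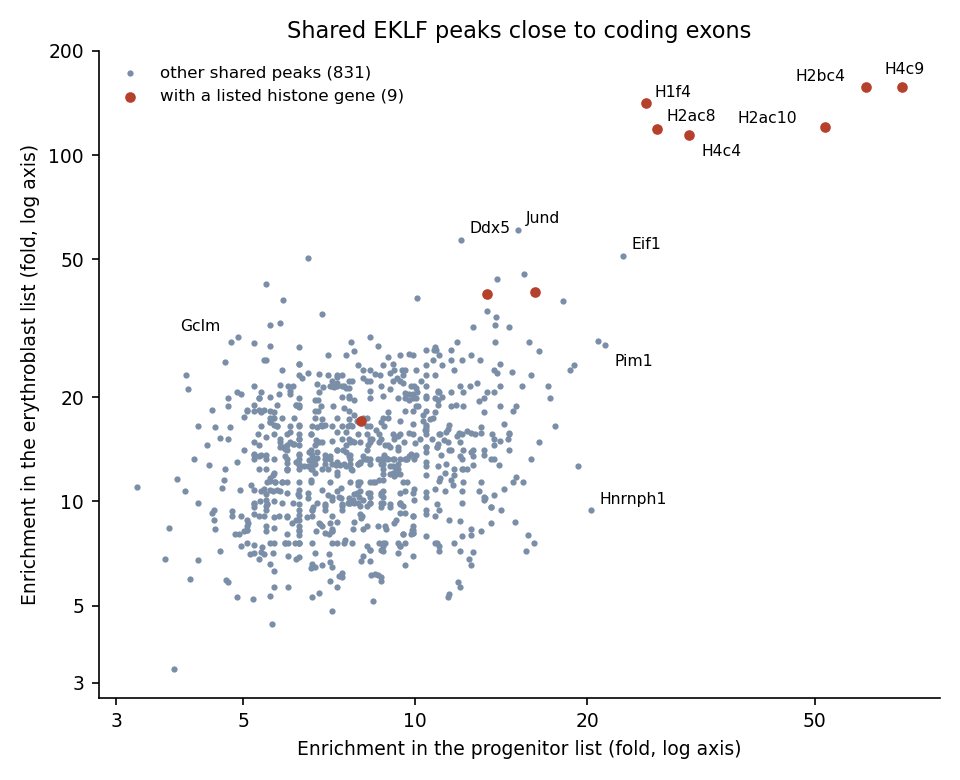
Authors' fold enrichment of each of the 840 shared peaks close to coding exons in the progenitor list (x, log axis) and the erythroblast list (y, log axis), 1 point a peak. Red points are the 9 peaks with a listed histone gene, 6 of which stand above 100 in the erythroblast list, while all other peaks stay at or below 60.9 (Jund).

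The most enriched of all were histone gene peaks on chromosome 13. Histone genes of this kind are expressed with DNA replication and supply the proteins that package new chromosomes. The 6 highest in the erythroblast list lay at H4c9 (157, chr13:22131217-22136547), H2bc4 (157, chr13:23774366-23777566), H1f4 (141), H2ac10 (120.35), H2ac8 (119) and H4c4 (114, chr13:23672575-23674908). In the progenitor list the same peaks had 70.9, 61.6, 25.3, 52.2, 26.4 and 30.1, and all 6 were among its 10 most enriched of these regions. Peaks at the histone genes H2ax, H3f3b and H2aj, which lie on other chromosomes, had 40.4, 39.7 and 17.0. H2aw, which the list's name pattern did not take in, had 45.5.

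None of the 9 listed histone genes at these peaks passed the 2-fold rule for RNA explained below. H2ac10 had an RNA coverage signal of 844 in progenitors and 476 in erythroblasts, and H2ac8 had 852 and 559. H4c9 had 3.54 and 5.45, H2bc4 8.08 and 8.87, H4c4 5.27 and 6.82, and H1f4 0.988 and 2.46. These genes have near-identical copies, each was read from 1 listed exon, and no source used here says how reads shared by copies were counted, so their values are uncertain.

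The promoter of H4c4 (chr13:23581318-23581567, GRCm38.p6, plus strand) is shown as a contrast to the promoters above and was chosen after its values were seen. Capitals mark ATTGG, which is CCAAT on the other strand, and TATAAA.

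H4c4: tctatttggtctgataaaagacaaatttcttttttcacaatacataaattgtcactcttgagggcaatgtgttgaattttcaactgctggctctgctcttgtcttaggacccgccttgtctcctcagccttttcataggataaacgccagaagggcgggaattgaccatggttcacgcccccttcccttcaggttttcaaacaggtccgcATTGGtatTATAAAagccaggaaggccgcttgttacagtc

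It held no match to CCNCNCCC. Of the 7 histone genes at these peaks with a promoter in RefSeq, 6 held CCAAT, 5 TATAAA and 2 CCNCNCCC.

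Outside the histone genes the most enriched erythroblast peaks lay at regulators that many cells express. Jund, an AP-1 transcription factor gene, had 60.9 in the erythroblast list and 15.1 in the progenitor list (chr8:73221630-73225611). Ddx5, an RNA helicase gene, had 57.0 and 12.02, and Eif1 51.3 and 23.1. The peak between Alyref, an mRNA export factor gene, and Anapc11, a subunit gene of the anaphase-promoting complex, had 50.4 and 6.50. In the progenitor list the 10 most enriched also took in Pim1, a survival kinase gene (21.4), and the splicing factor genes Srsf7 (20.9) and Hnrnph1 (20.3). Hnrnph1 had 9.46 in the erythroblast list, below the median of these regions. By -log10 p, however, it stood at rank 982 of 19353 there and at rank 65 in the progenitor list. Its peak was thus high in both lists by -log10 p, and by enrichment high in the progenitor list only. The widest peaks lay at H2ac8 (7065 bp), H2ac10 (6848 bp), Sphk1 and Ube2o (6383 bp), the chromatin reader gene Brd2 (5911 bp) and H4c9 (5331 bp).

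By position, the regions at forward-strand genes gathered at the first coding exon. The table numbers coding exons from the lowest coordinate, so on the forward strand number 0 is the first coding exon, while on the reverse strand it is the last. Of 660 listed forward-strand exons numbered 0, 284 (43.0%, Wilson 95% interval 39.3 to 46.8%) had a shared peak within 1 kb of their start. The share was 15.2% of 1131 exons numbered 1, 8.70% of 1092 numbered 2 and 3.37% of those numbered 3 to 5. From number 6 to 10 it was 0.359%, and from 11 on 0.434%. On the reverse strand it was 4.08% at number 0 and 6.19% from number 11 on, with no such gradient from the low end. The first coding exon of reverse-strand genes, which has the highest number, was not singled out. Erythroblast-only peaks followed the same order on the forward strand, with 29.7%, 14.1%, 6.68%, 3.19%, 1.92% and 0.536%. The intervals cover counting error only, and exons of 1 gene are not independent.

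**Figure D2:**
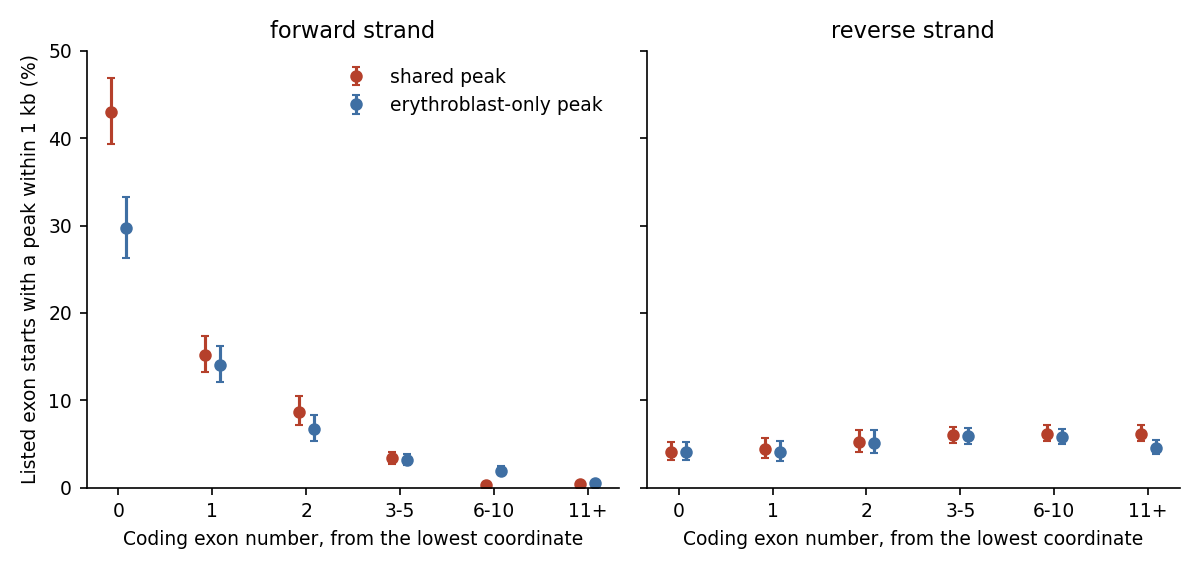
Share of listed coding exon starts with a peak within 1 kb (y, percent) by exon number counted from the lowest coordinate (x), for forward-strand genes (left) and reverse-strand genes (right). Red is shared peaks, blue erythroblast-only peaks, and bars are Wilson 95% intervals. On the left the shared peaks fall from 43.0% at exon 0 to under 1% from exon 6 on, and on the right all shares stay between 4.08% and 6.19%.

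At the 283 regions near a forward-strand first coding exon, the midpoint of the peak lay at a median of -49 bp from the exon's start, with minus for upstream (quartiles -240.5 and 118.5 bp). It was upstream in 161 (56.9%) and within 500 bp in 260 (91.9%). Among 196 erythroblast-only peaks of this kind the midpoint lay at a median of -40.5 bp, and 56.1% were upstream. Both sets were chosen for lying within 1 kb of such a start, which itself limits where a midpoint can lie. The nearness of these values is therefore description only, and no likeness between the sets is drawn from it. Of all 840 regions 683 (81.3%) held an exon start, 604 had 1 exon start within 1 kb and 111 had at least 3. A single gene was assigned to 793 regions, 45 had 2 genes and 2 had no named gene. The regions nearest inside the limit of 1 kb lay at Mrpl44 (994 bp), Crtc2 (981 bp), Ube2s (978 bp), Moap1 and Lcmt2 (966 bp each). Those nearest outside lay at Stx5a (1004 bp), Gemin2 (1007 bp), Sertad1 (1034 bp), Sphk2 (1049 bp) and Lig3 (1050 bp).

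The regions were spread over all autosomes and sparse on the X chromosome. On the 19 autosomes there were between 21.7 (chromosome 16) and 52.6 (chromosome 14) regions per 1000 listed exon starts, with a median of 38.2. On X there were 3.83, from 2 regions and 522 exon starts. The 2 lay at Pgrmc1, a heme-binding membrane protein gene (chrX:34137780-34139386), and Rbbp7, a histone-binding subunit gene (chrX:159197699-159199453). The X chromosome held 348 progenitor and 1298 erythroblast peaks in all. Erythroblast-only peaks close to coding exons numbered 9 there, or 17.2 per 1000 exon starts, against 11.8 to 45.6 on the autosomes. The difference between X and the autosomes rests on these 2 regions, and its cause was not tested. Neighbouring regions lay a median of 750 kb apart, and 28 neighbouring pairs were within 10 kb.

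RNA was not used to choose the regions beyond listing of an exon, so the RNA difference between the stages is a separate measure. The unit is the authors' coverage signal, summed over the listed coding exons of a gene and given as 1 value per stage. The difference is log2 of erythroblasts over progenitors after adding 1 to each. A gene is said to rise or fall where it differed at least 2-fold, a fixed rule that stands in for a test. In sorted bulk cells, fewer cells of a type and less RNA per cell cannot be told apart.

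Of 872 genes at these regions that could be compared, 133 rose (15.3%, Wilson 95% interval 13.0 to 17.8%), where the background over all 5194 genes was 15.3%. The genes that fell numbered 102 (11.7%, 9.73 to 14.0%), beside a background of 13.2%. The other 637 did neither, and the median difference was 0.04, against 0.03 over all genes. As a group, then, the genes at these regions changed about as often as any listed gene. The intervals cover counting error over genes only. Among the 4322 genes without such a region 15.3% rose and 13.49% fell. Among 665 genes at erythroblast-only peaks close to coding exons and with no shared one, 16.5% rose and 12.5% fell. At the 281 genes with a region at the forward-strand first coding exon, 14.6% rose and 11.7% fell. Hnrnpa3, a splicing regulator gene, was the 1 gene of 873 left out, as it stayed under the minimum of 1 in both columns.

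**Figure D3:**
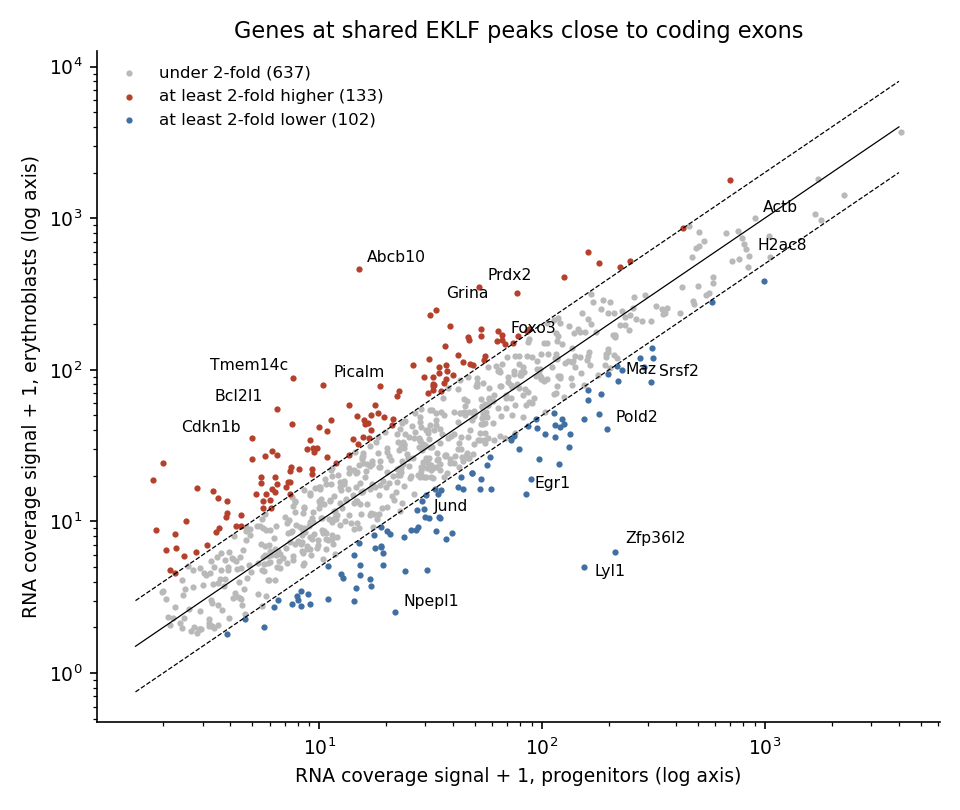
RNA coverage signal plus 1 in progenitors (x, log axis) and erythroblasts (y, log axis) for the 872 genes at shared peaks close to coding exons, 1 point a gene. The solid line is equality and the dashed lines mark a 2-fold difference. Of the genes 133 lie above the upper line (red), 102 below the lower line (blue) and 637 between them (grey).

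The share of genes that rose was read across the enrichment of the peaks. In 4 groups of the genes by erythroblast enrichment it was 13.1% (enrichment 3.29 to 9.84), 11.8% (9.87 to 13.25), 17.0% (13.32 to 18.19) and 19.4% (18.29 to 157.44). The share of falling genes was 13.51%, 12.2%, 10.4% and 10.6%. In 4 groups by progenitor enrichment the rising share was 15.7%, 15.5%, 15.6% and 14.2%, and the falling share was 11.6%, 14.4%, 9.17% and 11.9%. The lowest and the highest of the rising shares by erythroblast enrichment had Wilson intervals of 8.16 to 16.7% and 14.7 to 25.1%. The difference between the groups was not tested, since genes are not replicates.

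**Figure D4:**
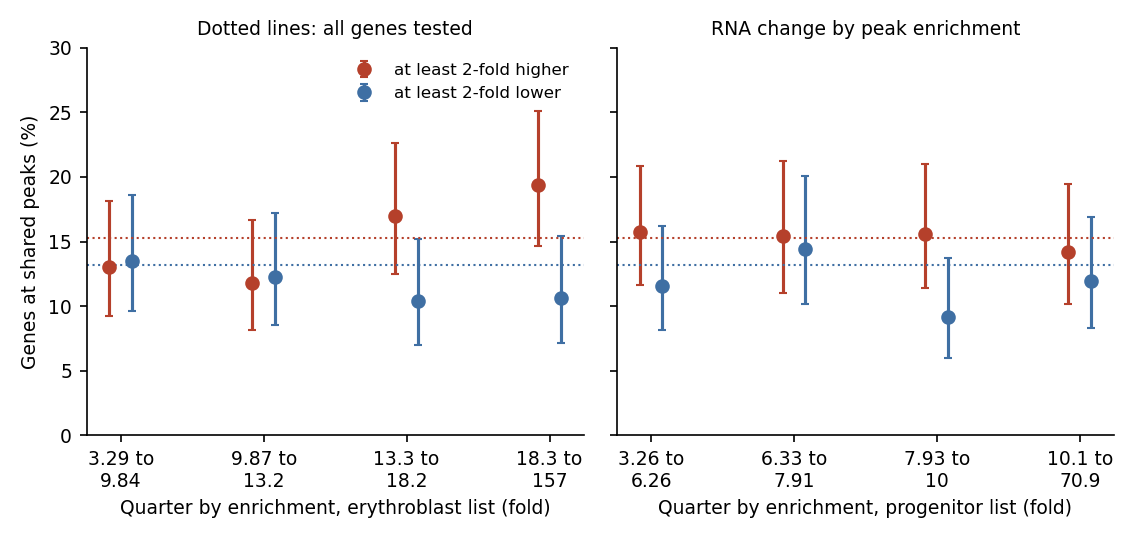
Share of genes at shared peaks that rose (red) or fell (blue) by at least 2-fold (y, percent), in 4 groups of the genes by erythroblast enrichment (left) or progenitor enrichment (right) of the peak. Bars are Wilson 95% intervals and dotted lines are the shares over all 5194 genes (15.3% and 13.2%). On the left the red points lie between 11.8% and 19.4%, and on the right between 14.2% and 15.7%.

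The genes of heme synthesis and iron handling at these regions were mostly higher in erythroblasts. Of 25 listed genes, 8 lay at such a region, of which 5 rose, none fell and 3 did neither, with a median difference of 1.33. Over the whole list 16 rose and 1 fell, with a median of 1.52, and over all genes 15.3% rose and 13.2% fell. Abcb10, an ABC transporter of the inner mitochondrial membrane that heme production depends on, went from a signal of 14.1 to 463, a log2 difference of 4.94, with all 7 listed exons higher. It was the largest rise among all genes at these regions, and its peak (chr8:126505546-126507809) had an enrichment of 20.8 in the erythroblast list and 8.35 in the progenitor list. Tmem14c went from 6.63 to 87.3, a log2 difference of 3.53, although its erythroblast peak was the narrowest of all and lay 964 bp from the exon start.

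Urod, named above for its small overlap, went from 52.1 to 166, with all 9 exons higher (log2 difference 1.65). Ftl1, the ferritin light chain, had 430 and 863 and sat just past the rule at 1.01 on 1 listed exon, and under it at 0.98 with the columns scaled by their median ratio. Its heavy chain partner Fth1, which also stores iron, had 789.1 and 744. Fech, which inserts the iron into heme, had 169 and 279 (log2 difference 0.72), and Glrx5, which helps to make iron-sulfur clusters, had 64.5 and 77.4. Ferritin genes have processed copies, which can make their coverage uncertain.

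No globin gene of the 2 listed lay at such a region, and of 18 listed membrane and skeleton genes only 2 did. These were Bsg, the surface protein basigin, with 117 and 218, and Cd24a, an antigen that is lost as red cells mature, with 154 and 78.2. Neither passed the rule, while 14 of the 18 genes on the list rose. The 2 genes are 11.1% of the list, where 16.8% of all tested genes lay at such a region, a difference that was not tested.

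Among 28 listed erythroid transcription factor genes, 7 lay at such a region, and 1 of these rose and 2 fell. The whole list had 4 that rose and 3 that fell, beside 15.3% and 13.2% over all genes. The share of all tested genes at such a region was 16.8%. These counts were not tested. Foxo3, a forkhead factor that drives antioxidant and maturation genes, went from 65.2 to 157 (log2 difference 1.26). Zfpm1 had 457 and 893, just under the rule at 0.97, with all 10 exons higher, and had 2 regions, chr8:124804124-124807378 and chr8:124858887-124861360. E2f2 had 27.3 and 33.5, a log2 difference of 0.29, with 5 of 7 exons higher. Its region chr4:135727646-135729817 had an enrichment of 9.92 in the erythroblast list and 5.84 in the progenitor list, both below the medians of the 840. Klf13, a relative of EKLF, had 8.14 and 13.9, and the ubiquitous factor Sp1 had 72.0 and 63.8, both under the rule.

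Lyl1, which encodes a relative of SCL/TAL1 active in early blood cells, fell from 154 to 3.98, a log2 difference of -4.96, with all 3 exons lower. Its region (chr8:87224457-87226194), 369 bp from the nearest exon start, had an enrichment of 22.2 and 10.2 in the erythroblast and progenitor lists, above both medians. It is shared with Trmt1, a tRNA methyltransferase gene on the same strand, which went from 18.3 to 5.14. Maz, a zinc finger factor of GC-rich promoters, fell from 218 to 83.8 with all 5 exons lower. Its region is shared with Kif22 on the same strand, which was higher in erythroblasts, with 85.8 and 151, but under the rule. So a peak called at both stages was found at genes that rose, at genes that fell and at genes that did neither.

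Cell cycle regulators moved both ways. Of 38 listed, 12 (31.6%) lay at such a region, against 16.8% of all tested genes. Of the 12, 6 rose and 3 fell, where over all genes 15.3% rose and 13.2% fell. Among genes for inhibitors of cyclin-dependent kinases, Cdkn1b went from 3.99 to 34.4 (log2 difference 2.83, 1 listed exon), Cdkn2c from 4.51 to 17.0 and Cdkn2d from 1.28 to 5.69. With a pseudocount of 5 Cdkn2d had a log2 difference of 0.77 and was under the rule. The cyclin genes Ccnd3 (124 to 407) and Ccne2 (1.15 to 3.797) and the survival and spindle gene Birc5 (20.4 to 46.1) also rose. Cdk2, a kinase of S phase entry, fell from 43.4 to 15.3, Wee1, an inhibitory kinase, from 6.94 to 2.23, and Cks2, a kinase-binding subunit, from 16.6 to 7.18. E2f1 had 54.7 and 37.1 and Ccna2 93.6 and 114, under the rule. Cdkn2c, Ccnd3, Ccne2, Cdk2, Wee1 and Cks2 were not read with a pseudocount of 5, and the values of Ccne2 lie near the low edge of the table. Over the whole list 13 rose and 5 fell.

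DNA replication genes were common at these regions and mostly differed less than 2-fold. Of 41 listed, 16 (39.0%) lay at one, against 16.8% of all tested genes. Of the 16, 1 rose, 2 fell and 13 did neither, where over all genes 15.3% rose and 13.2% fell. Cdc6, which loads the replicative helicase, rose from 35.8 to 142 with all 8 exons higher. Pold2, a DNA polymerase delta subunit, fell from 195 to 39.9 with all 9 exons lower, and Cdt1, the partner of Cdc6 in loading, fell from 124 to 42.8. The helicase subunits Mcm6 (210 and 236) and Mcm7 (229 and 244) and the sliding clamp Pcna (194 and 120.0) were under the rule. The counts of genes near a region describe where the rule placed its members and were not tested.

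Genes of autophagy and terminal maturation, which help red cells to clear their organelles and to survive, were higher in erythroblasts. Of 22 listed, 7 (31.8%) lay at such a region, against 16.8% of all tested genes. Of the 7, 6 rose and none fell, with a median difference of 1.05. Over the whole list 12 rose and none fell (median 1.02), and over all genes 15.3% rose and 13.2% fell. Bcl2l1, which encodes the survival protein Bcl-xL, went from 5.48 to 53.7 with both exons higher, a log2 difference of 3.08. Bnip3l, needed to clear mitochondria, went from 21.7 to 71.1, and Becn1, which starts autophagosome formation, from 14.9 to 45.5 with all 7 exons higher. Sqstm1 (73.1 to 149.97), a cargo receptor, Gabarap (34.1 to 71.8), an autophagosome protein, and Atg12 (1.25 to 3.55) sat just past the rule. With a pseudocount of 5 Gabarap (0.97) and Sqstm1 (0.99) were under it, and by exon median Sqstm1 was 0.71. Atg12, with a progenitor value near the low edge of the table, was not read under these settings, nor were Bnip3l and Becn1. Mcl1, a short-lived survival protein gene, had 23.1 and 16.2.

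Antioxidant genes were the list with the second largest share at these regions after the histone genes. Of 17 listed, 9 (52.9%) lay at one, against 16.8% of all tested genes. Of the 9, 4 rose and none fell, with a median difference of 0.77, the same as that of the whole list. Over the whole list 8 rose and 1 fell, and over all genes 15.3% rose and 13.2% fell. Prdx2 went from 51.4 to 353 with all 4 exons higher (log2 difference 2.76). Cat, which encodes catalase, went from 52.3 to 185 with 11 of 13 exons higher. Gpx4, which reduces lipid peroxides, went from 31.6 to 72.8 and Gclm from 54.7 to 123. Gpx1 had 506 and 659, Sod1 61.1 and 105, Gclc 27.6 and 40.9, Keap1, the sensor that restrains this response, 29.6 and 21.5, and the mitochondrial enzyme Sod2 43.3 and 24.0, all under the rule.

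**Figure D5:**
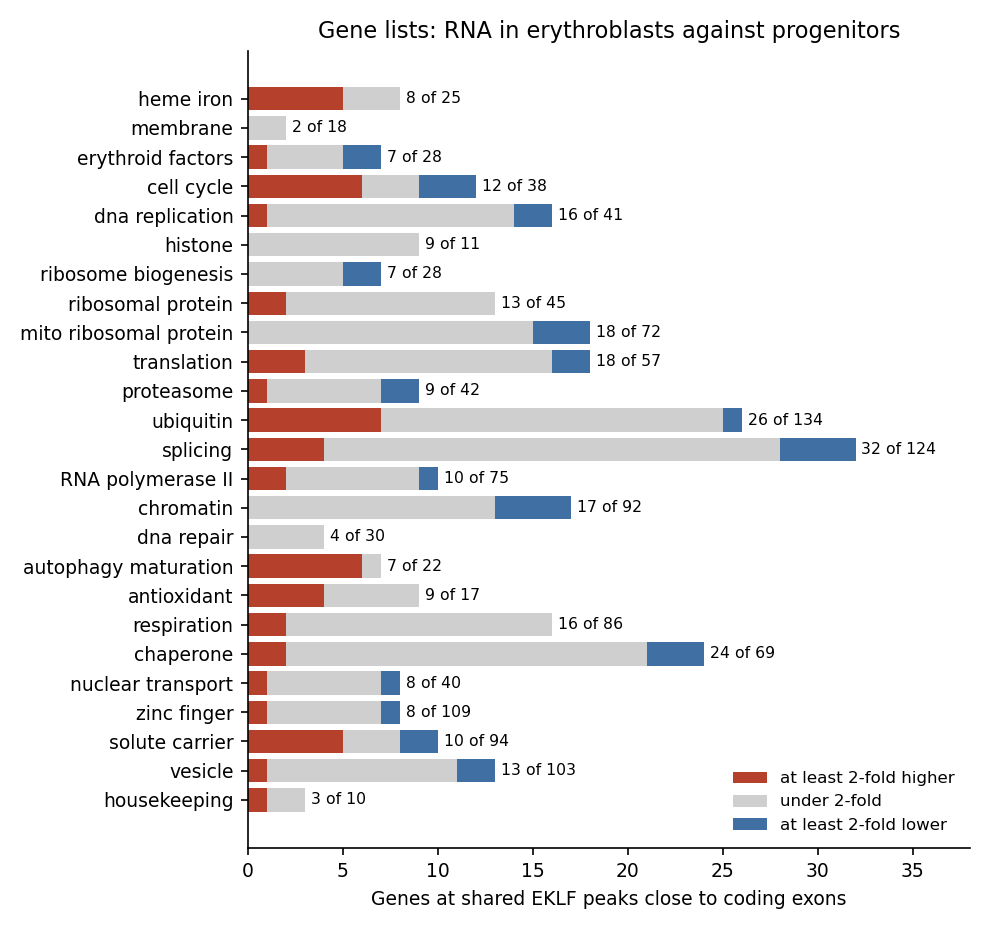
Number of genes at shared peaks close to coding exons in each gene list (x), split into genes at least 2-fold higher in erythroblasts (red), under 2-fold (grey) and at least 2-fold lower (blue). The figures beside the bars give the genes at these peaks of the listed genes, such as 9 of 11 histone genes, 9 of 17 antioxidant genes and 8 of 109 zinc finger genes, and the red part is longest relative to the bar for the autophagy and heme lists.

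Over all genes 15.3% rose and 13.2% fell, and the counts for genes of ribosomes and translation stand beside these shares. Of 28 listed ribosome biogenesis genes 7 lay at such a region, 2 fell (Nop56, 120 to 41.2, and Nop14, 47.5 to 19.9, which by exon median is -0.79 and under the rule, both of the nucleolar machinery that processes ribosomal RNA) and none rose. Over the whole list 16 fell and none rose, with a median of -1.21 against -0.46 for the 7. Of 13 ribosomal protein genes at these regions 2 rose, Rpl22 (84.5 to 178) and Rpl37 (20.3 to 42.0), and none fell. Among 18 mitochondrial ribosomal protein genes 3 fell and none rose, with a median of -0.52, and over the whole list of 72 there were 12 that fell and 4 that rose, with a median of -0.15. Of 18 translation factor genes 3 rose, all for initiation, namely Eif5b (76.0 to 319), Eif5 (16.0 to 49.1) and Eif3a (180 to 508), and Eif4a3, of the exon junction complex, fell from 103 to 36.4 and Eef1e1 from 13.3 to 4.995. Eif1, at 1 of the most enriched peaks, had 3.71 and 6.53.

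Splicing genes that rose and that fell were both found. Of 124 listed, 32 (25.8%) lay at such a region, and 4 of these rose and 4 fell. Over the whole list 13 rose and 21 fell, and over all genes 15.3% rose and 13.2% fell. Srsf2 fell from 306 to 81.8 with both exons lower, Srsf7 from 55.5 to 22.6 (by exon median -0.97, under the rule) and Prpf8, at the core of the spliceosome, from 994 to 384. Hnrnph1 rose from 30.2 to 116 with all 9 exons higher, and Hnrnpd from 36.3 to 106. Of 92 chromatin genes 17 (18.5%) lay at such a region, near the 16.8% of all tested genes, and 4 fell and none rose, while over the whole list 13 fell and 8 rose. The genes that fell were Setd1a (159 to 72.3) and Kmt5a (73.7 to 35.6), both histone methyltransferase genes, Brd2 (215 to 104, by exon median -0.78 and under the rule) and Rbbp7 (17.97 to 8.13). Setd1a, Kmt5a and Rbbp7 were not read under other settings. The median of the 17 was -0.27, against -0.17 for the list.

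Genes of protein turnover and folding were counted in 3 lists. Of 134 listed ubiquitin genes 26 lay at such a region, 7 rose and 1 fell, while 27 rose and 12 fell over the list. Ube2s (64.99 to 168) and Ube2m (36.5 to 96.8) encode conjugating enzymes, and Cul4a (48.0 to 107) a ligase scaffold. Trim27 fell from 71.5 to 33.3. Of 9 proteasome genes at these regions Psmf1, an inhibitor of the proteasome, rose from 17.5 to 50.7, and Psma6 (32.6 to 7.61) and the activator gene Psme3 (27.8 to 12.6) fell. Of all 42 listed proteasome genes 9 rose and 4 fell. Of 24 chaperone genes 2 rose and 3 fell, among them Bag1 (31.3 to 77.7), a partner of HSP70, and Calr (275 to 119), a calcium-binding chaperone of the endoplasmic reticulum. Of all 69 listed chaperone genes 7 rose and 11 fell. Of 16 respiration genes at these regions 2 rose, Ndufv2 (16.9 to 57.6) and Ndufaf3 (5.31 to 14.6), both of complex I, and none fell. Of all 86 listed respiration genes 21 rose and 5 fell. The shares over all genes were 15.3% that rose and 13.2% that fell. No listed glycolysis gene of 16 lay at such a region.

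Among 10 of 94 listed carrier genes at these regions (10.6%, against 16.8% of all tested genes) 5 rose and 2 fell. Over the whole list 32 rose and 12 fell, and over all genes 15.3% rose and 13.2% fell. Those that rose included Slc30a1, a zinc exporter (2.35 to 14.9, 1 exon), and Atp6v0b, a subunit of the vesicle proton pump (6.56 to 43.2). Those that fell were Slc48a1, a heme transporter (87.9 to 18.1), and Slc39a7, a zinc transporter (47.7 to 19.8). The fall of Slc39a7 is not past the rule with the median of its exon log2 ratios, which was -0.46. Rab8b, a vesicle traffic gene, rose from 8.43 to 29.5, and Arf6 fell from 114 to 35.1 on 1 exon. Kpnb1, which imports proteins into the nucleus, fell from 311 to 138 in sum, but 5 of its 16 exons were higher and the median of its exon log2 ratios was -0.61, under the rule. Ranbp10, a Ran-binding protein gene, rose from 45.9 to 157. The housekeeping gene Actb had 903 and 994.

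Beyond the lists, several of the largest rises and falls at these regions rested on 1 exon. Dhrs11, a dehydrogenase gene, went from 0.991 to 23.2 (log2 difference 3.61), and Fahd1, a mitochondrial acylpyruvase gene, from 0.806 to 17.7 (3.38), each on 1 exon and with progenitor values at the edge of the table. Picalm, which acts in clathrin uptake of the transferrin receptor, rose from 9.42 to 78.3 with all 6 exons higher, and Grina from 32.3 to 246 with all 6 higher. The largest fall was Zfp36l2, whose protein binds AU-rich mRNAs and speeds their decay, from 212 to 5.31, a log2 difference of -5.08, on 1 exon. Npepl1 went from 20.9 to 1.53, Pgrmc1 from 29.5 to 3.75, the immediate early gene Egr1 from 83.7 to 14.2, and Klf16, another relative of EKLF, from 23.2 to 3.74. Ubqln4, a shuttle to the proteasome, fell from 118 to 22.8 with all 9 exons lower, Mnt, an antagonist of MYC, from 36.2 to 6.65, and Mgat2 from 13.3 to 1.996 on 1 exon. Jund, at the most enriched peak outside the histone genes, fell from 28.9 to 9.72 on 1 exon. In all, 27 of the 133 rises and 19 of the 102 falls rested on 1 listed exon, as did 154 of all 873 genes at these regions.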

How the data were processed

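Peaks were deposited as 1 pooled list per stage in build mm9, per the submitters' processing notes, and RNA as 1 column per stage. No source used here names the aligner, peak caller or counter. From its values, the peak lists' deposited ratio is read as the authors' fold enrichment, and the next column as the authors' -log10 p. The deposited RNA table carries RPKM in its name, but the numbers are whole multiples of 1 step per column, a coverage signal not divided by exon length, so only the same gene is compared between stages. No source used here says whether the erythroblast column pools both libraries, so it is given as the authors' own value, without SD or n.

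Symbols came from RefSeq (GRCm38.p6), matched for 6772 of 6853 transcripts, and its gene coordinates were not used. The table held 30257 exon rows. Exons of 1 transcript per gene were summed, genes with at least 1 in at least 1 column were kept (5194), and 1 was added before log2. The planned limma model needs several columns per stage, so the 2-fold rule planned for this case was applied. Steps were tested on simulated data. Overlap was at least 1 bp and the window 1 kb. Alternatives changed the overlap, window, peak threshold, pseudocount, filter, scaling and gene summary.

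Named peaks were the 10 most enriched in each list, the 5 nearest each side of the window's limit, the 5 smallest overlaps and the 5 widest. Named genes were all genes of the heme, membrane, globin and erythroid factor lists, up to 4 of each other list by enrichment, and, of genes reaching 5 at the higher stage, the 10 largest rises and the 10 largest falls. Other genes of the lists, Stk11, Sde2, Nufip2 and pairs are named as members of a count or a printed set. An item that the rule names is not reported here. The regions, gene lists and motifs were chosen with earlier results of these data known. Python 3.11.15, pandas 2.3.3, numpy 2.4.6, scipy 1.17.1 and matplotlib 3.10.9 were used.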

Additional observations from a re-analysis of the deposited data

How the results depend on the processing

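The number of regions stayed between 662 and 970 when the overlap, the window or the point measured from was changed. It fell to 377 with a -log10 p of at least 10 in both lists and to 454 with the upper 50% of each list, since both keep fewer peaks. The median log2 difference was then -0.0494 and -0.0422, and 0.10 with the median of the exon log2 ratios, where that of all genes was 0.07. With a pseudocount of 5 the share of rises was 11.2% and that of falls 8.49%, beside 9.86% and 7.91% over all genes. With the median of the exon ratios falls were 8.26%, beside 9.72%. Under the other settings run, including scaling the columns by their median ratio, the shares moved by less than their counting intervals. Of 123 named genes 10 lost the 2-fold call under at least 1 of 6 RNA settings (Cdkn2d, Zfp830, Gabarap, Sqstm1, Ftl1, Brd2, Kpnb1, Nop14, Slc39a7 and Srsf7). Another 4 gained it (Zfpm1 and Sod1, with 1.44 and 1.02 by exon median, H1f4 with a pseudocount of 0.1, and Taf6l). Genes mentioned in the text but outside the 123 were not read singly under these settings, so their calls may be as unsteady. No paired analysis was possible because each stage has 1 pooled peak list and 1 RNA column, and for the same reason no library could be left out.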

Other observations

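At 45 regions 2 genes shared the peak, and both were compared in RNA. In 29 of these pairs the genes ran away from each other, in 13 they lay on the same strand and in 3 they ran toward each other. Among the divergent pairs both genes moved the same way in 2, 1 gene moved in 13 and neither in 14. The zinc transporter gene Slc39a7 (47.7 to 19.8) and the retinoid receptor gene Rxrb (32.1 to 15.3) fell together, as did the transcriptional repressor subunit gene Drap1 (94.5 to 40.5) and AI837181 (17.9 to 5.90), though by exon median Slc39a7 was -0.46, under the rule. Among the same-strand pairs both moved the same way in 2, Chmp2a (38.8 to 91.6) with Ube2m, and Trmt1 with Lyl1. Of the genes at these regions 15.3% rose and 11.7% fell, so few pairs moving opposite ways would be met among 45 without any link. In no pair of any arrangement did the genes pass the rule in opposite directions. Several pairs differed in size all the same, as Eif5b rose from 76.0 to 319 while its divergent neighbour Txndc9 had 9.04 and 15.7, and Trmt2a fell from 96.5 to 24.7 while Ranbp1 had 97.7 and 88.3. No test was made of how often neighbours move together.

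Of the 872 genes, 35 also had an erythroblast-only peak close to a coding exon. In these 5 rose and 4 fell, or 14.3% and 11.4%, beside 15.3% and 11.7% of the 837 without one, with Wilson intervals of 6.26 to 29.4% and 4.54 to 25.95% that cover counting error only. A difference between these groups was not detectable at this number of genes. There were 10 genes with 2 shared regions, among them Prdx2, Zfpm1, the initiation factor gene Eif4g1 and Ube2m.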
